A study of Homo sapiens with 9 samples.

Results

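The genes described here are interferon-stimulated genes, measured in HT29 cells, an established human colon adenocarcinoma line grown as epithelial sheets. They were chosen by symbol from a list of 48, and each was represented by the probe set with 1 gene symbol that had the highest mean log2 intensity over all arrays. Of the 48 listed genes 47 were measured, among 19775 genes in all, and 1 was not analysed here. The array was the Affymetrix HG-U133 Plus 2.0, on which a probe set is a group of short probes for the same transcript. Untreated cells (Control, 3 arrays), cells given 1.68 µg/mL of caffeic acid for 24 h (CA, 3 arrays) and cells given 7 µg/mL of instant caffeinated coffee for 24 h (ICC, 3 arrays) were compared. Caffeic acid is a phenolic acid of coffee. Every group was the same line without any genetic change named in the labels, and the arrays of each group carried the replicate numbers 1, 2 and 3. The labels do not say what a number marks, or whether replicates were separate cultures. The p-values below weigh a difference against the spread that the model leaves between these arrays, which may be technical. In RNA from whole cultures, fewer expressing cells and less RNA in each cell cannot be told apart.

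Interferons are secreted proteins that bind receptors on the cell surface. Receptor-bound kinases then activate transcription factors, among them a complex that holds IRF9 and binds a DNA element called the interferon-stimulated response element, and a further factor that binds an element called GAS. The induced genes encode sensors of viral RNA, enzymes that degrade RNA, proteins that block viral entry or replication, the ubiquitin-like modifier ISG15 with its enzymes, and regulators of the pathway itself. Epithelial cells of the colon express the receptors and respond to type I and type III interferons, and many of these genes also have a basal level in tumour lines.

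Stretches of promoters are shown because they carry the element that defines how many of these genes are switched on. They come from RefSeq, build GRCh38.p14, from windows of 250 bases before to 50 bases after each gene's start, which were found for 38 of the 47 measured genes. Capitals mark matches to the core of the response element, which was taken as GAAA, any 2 bases and GAAA again, searched on both strands with overlapping matches kept. IFITM1, IFI44L, IFI44 and EPSTI1 are among the 12 genes with the smallest p between replicate numbers 1 and 3. The stretches of IFIT1, ISG15 and BST2 each hold 2 matches, which overlap in ISG15 and BST2, and that of IFI6 holds 3. The windows of IFI44L and IFITM1 each hold a further match outside the stretch printed. IFITM1 is chr11:313990-314019 (plus strand), IFI44L is chr1:78620365-78620394 (plus), IFI44 is chr1:78649761-78649790 (minus) and EPSTI1 is chr13:42992272-42992301 (minus). IFIT1 is chr10:89392497-89392539 (minus), ISG15 is chr1:1013374-1013409 (plus), BST2 is chr19:17405735-17405770 (minus) and IFI6 is chr1:27672266-27672358 (minus). All 8 stretches lie before an annotated start of their gene, and the strand is the one printed, 5′ to 3′. IFI44 has 2 windows, in which its match lies 50 and 8 bases before the start. Its stretch therefore reaches past the nearer start.
IFITM1: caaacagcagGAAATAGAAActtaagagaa
IFI44L: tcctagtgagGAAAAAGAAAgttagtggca
IFI44: tcagagaaagGAAACTGAAActcagtgtgc
EPSTI1: ctgattctgaGAAACCGAAActcagctgtt
IFIT1: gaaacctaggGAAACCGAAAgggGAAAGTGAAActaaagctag
ISG15: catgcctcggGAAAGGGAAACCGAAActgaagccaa
BST2: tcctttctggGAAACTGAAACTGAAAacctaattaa
IFI6: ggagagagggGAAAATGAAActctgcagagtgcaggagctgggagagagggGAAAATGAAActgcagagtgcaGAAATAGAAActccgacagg

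The response element core was present in a window of 27 of the 38 genes (71.1%), against 4.38% of all 27305 genes in the table. The palindromic GAS core TTCNNNGAA was present in 13 of 38 (34.2%), against 9.38% of all genes in the table. No response element core lay in the windows of UBE2L6, HERC6, SAMD9L, OAS1, IRF1, IRF9, CMPK2, SP100, SP110, XAF1 and IFI35. The log2 difference between replicate numbers 1 and 3 had a median of 0.75 in the 27 genes with this core. In the 11 without it the median was 0.90. A match is a description of letters in a window and not a measured binding site. Several of the genes are neighbours among protein-coding genes: IFI44L and IFI44, GBP1 and GBP2, IFIT2 and IFIT3, IFIT1 and IFIT5, the 3 IFITM genes, OAS1, OAS3 and OAS2, CMPK2 and RSAD2, MX2 and MX1, PARP9 and DTX3L, and SAMD9 and SAMD9L.

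Values are log2 of the deposited intensity. Array medians of the linear intensity ran from 43.8 to 46.6. Mean log2 intensity over the 9 arrays ran from 7.00 (SAMD9L) to 12.87 (IFI27) for the 47 genes, all above the median over all genes (6.46), and 37 were above the upper quartile (8.76). Brightness differs between probe sets for reasons other than RNA amount, so genes were not ranked against each other. Means of 12 colon epithelial markers ran from 5.93 to 14.38, with EPCAM at 13.11, KRT20 at 11.70 and CDH1, which encodes E-cadherin, at 12.15, while CEACAM5 (6.2) and the transcription factor gene CDX2 (5.93) lay below the median of all genes. Means of 9 leukocyte markers ran from 3.65 for PTPRC, which encodes CD45, to 7.18 for LAPTM5. CD3E of the T cell receptor complex was at 5.27, and CD14 (7.14) and LAPTM5 lay above the median of all genes.

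The interferon-stimulated genes varied with the replicate number of the arrays far more than with treatment. All 47 had a higher mean in the arrays numbered 1 than in those numbered 2 and those numbered 3, and in 43 of 47 the array numbered 1 was the highest of its group in Control, in CA and in ICC, a pattern shown by 14.6% of all genes. A difference above 0 was seen in 59.4% of all genes against number 2 and in 59% against number 3. The median difference was +0.53 for number 1 minus number 2 and +0.82 for number 1 minus number 3, where the medians of all genes were 0.027 and 0.026. Array by array, the median deviation of the 47 genes from their own means was +0.47 in Control 1, +0.52 in CA 1 and +0.38 in ICC 1. It was -0.25, +0.11 and -0.13 in the arrays numbered 2 of the same groups, and -0.31, -0.42 and -0.33 in those numbered 3. The 3 arrays numbered 1 stood apart, the 3 numbered 3 were low, and CA 2 lay above the other arrays numbered 2.

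**Figure D1:**
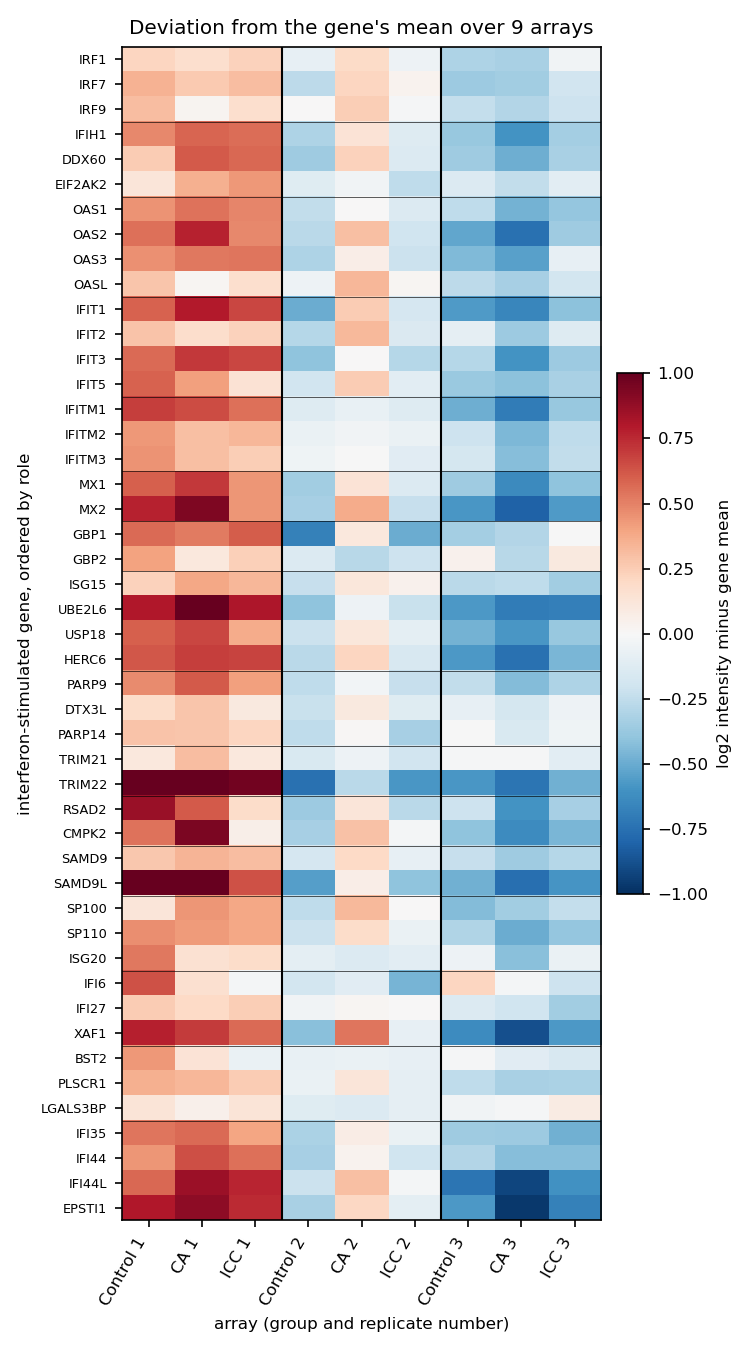
Deviation of each of 47 interferon-stimulated genes (vertical axis, ordered by role) from its mean over the 9 arrays, in log2 intensity, for each array (horizontal axis, group and replicate number). Colours saturate at ±1; the 3 arrays numbered 1 are red for nearly every gene, with medians of +0.47, +0.52 and +0.38, and those numbered 3 are mostly blue.

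Replicate numbers were compared with limma, with the group as a term in the model, and p-values were adjusted by Benjamini-Hochberg over all 19775 genes. At an adjusted p under 0.05, 33 of 47 were higher in number 1 than in number 2 and 0 were lower, where 3.84% of all genes passed in either direction and 3.1% as higher. For number 1 against number 3 the count was 38 higher and 0 lower, where 4.56% of all genes passed and 3.33% as higher. The 3 arrays numbered 1 lay above the 3 numbered 2 without overlap in 38 of 47 (14.1% of all genes) and above the 3 numbered 3 in 44 of 47 (14% of all genes). A difference of at least 2-fold was seen in 3 genes for number 2 (0.116% of all genes) and in 15 for number 3 (0.243%). These comparisons share the arrays numbered 1. The count for number 2 depended on single arrays, with 15 without Control 1, 11 without Control 2, 14 without CA 1, 16 without ICC 1 and 9 without ICC 2, while the median difference stayed between 0.43 and 0.61. For number 3 leaving out an array gave 30 to 41. Over all genes the share of calls that were higher in number 1 was 80.7% against number 2 and 73.1% against number 3. With each array centred on its median the shares were 55.7% and 47.7%, and after a further quantile normalization 67.9% and 60.8%. Under centring 46 of the 47 stayed above 0 against number 2 and 47 against number 3. The medians of all genes were then -0.029 and -0.034.

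**Figure D2:**
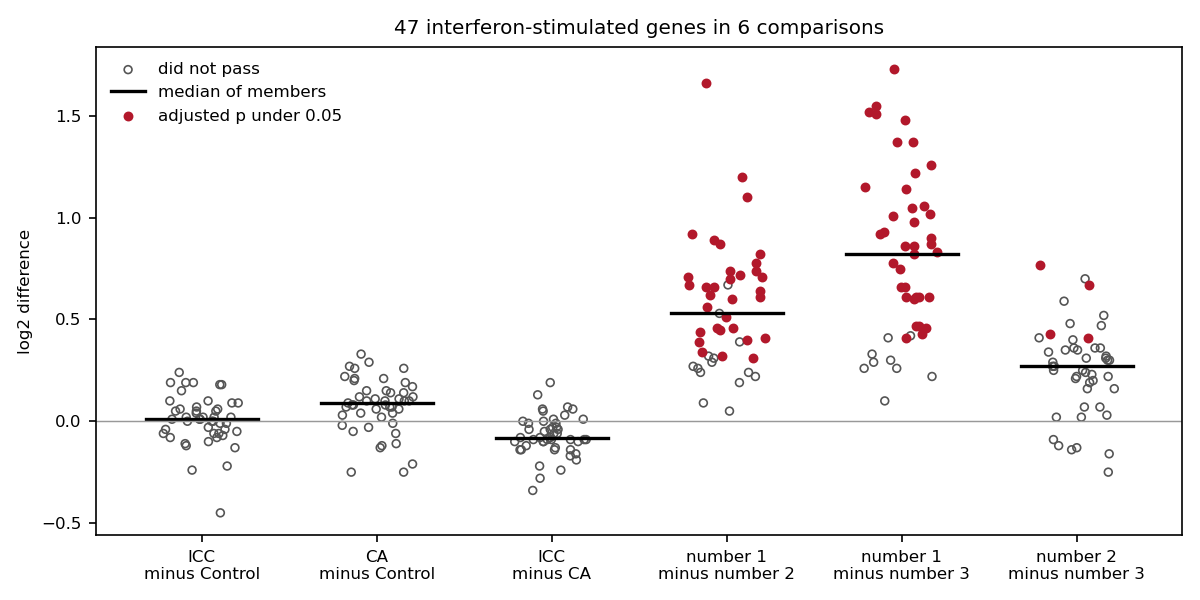
Log2 difference of each of 47 genes (points; filled where limma's adjusted p was under 0.05) in 3 treatment and 3 replicate-number comparisons, with the median of the genes as a bar. The treatment medians are 0.01, 0.09 and -0.08 with no filled point, and the number medians are 0.53, 0.82 and 0.27 with 33, 38 and 4 filled points.

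The ISG15 system gave the gene with the smallest p. UBE2L6 encodes the E2 enzyme that passes ISG15 on to target proteins, and its log2 intensity in number 1 was 10.22 in Control, 10.44 in CA and 10.23 in ICC. In number 2 it was 9.02, 9.37 and 9.20, and in number 3 8.85, 8.72 and 8.74. The numbers did not overlap, and 97.3% of the gene's sum of squares over the arrays lay between numbers. The difference was +1.10 ± 0.090 (SE, n = 3 arrays a number) against number 2, or 2.14-fold (adjusted p = 0.000253 by limma), and +1.52 ± 0.090 against number 3, or 2.88-fold (adjusted p = 8.57e-05).

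HERC6, a HECT-type ligase related to the human ISG15 ligase HERC5, was at 10.42, 10.49 and 10.47 in the arrays numbered 1 of Control, CA and ICC. The same groups had 9.53, 10.01 and 9.64 in number 2 and 9.22, 9.05 and 9.34 in number 3, again without overlap between any of the numbers. It was 2.39-fold higher in number 1 than in number 3 (+1.26 ± 0.12, adjusted p = 0.000464 by limma), though only +0.69 as the mean of its 2 probe sets. USP18, the protease that removes ISG15 and also restrains receptor signalling, was at 8.93, 9.00 and 8.71 in number 1, 8.12, 8.45 and 8.24 in number 2 and 7.86, 7.75 and 7.96 in number 3. It was +1.02 ± 0.10 higher in number 1 than in number 3 (adjusted p = 0.000826). ISG15 itself was bright throughout, at 12.75, 12.91 and 12.85 in number 1, 12.29, 12.63 and 12.56 in number 2 and 12.25, 12.27 and 12.17 in number 3. Its differences were smaller, +0.34 against number 2 (adjusted p = 0.0440) and +0.61 against number 3 (adjusted p = 0.00247). All 4 genes of the system passed in both comparisons.

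TRIM22, an antiviral ubiquitin ligase of the tripartite motif family, had the largest difference of the 47. Its level in number 1 was 9.23 in Control, 9.57 in CA and 9.15 in ICC, in number 2 it was 7.44, 7.91 and 7.60, and in number 3 7.60, 7.45 and 7.70. The arrays numbered 2 and 3 overlapped, and all 3 numbered 1 lay far above both. The differences were +1.66 ± 0.12 (3.16-fold, adjusted p = 0.000147 by limma) and +1.73 ± 0.12 (3.32-fold, adjusted p = 0.000182), and number 2 minus number 3 was +0.07 ± 0.12. Its relative TRIM21, a ligase that binds antibody-coated viruses in the cytosol, was at 8.12, 8.32 and 8.12 in number 1, 7.86, 7.96 and 7.82 in number 2 and 8.0, 8.0 and 7.91 in number 3. TRIM21 passed against number 2 (+0.31 ± 0.067, adjusted p = 0.0347) and not against number 3 (+0.22, adjusted p = 0.10).

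Among inhibitors of viral entry, IFITM1, a small membrane protein that hinders fusion of viral and cell membranes, was at 12.28, 12.24 and 12.14 in number 1, at 11.46, 11.51 and 11.46 in number 2 and at 11.10, 10.89 and 11.21 in number 3, in the order Control, CA and ICC. The 3 numbers did not overlap, and the spread within number 2 was an SD of 0.033. It was +0.74 ± 0.087 higher in number 1 than in number 2 (adjusted p = 0.00203 by limma) and +1.15 ± 0.087 higher than in number 3 (adjusted p = 0.000244). IFITM3, at 12.94, 12.79 and 12.74 in number 1, 12.45, 12.49 and 12.38 in number 2 and 12.32, 12.07 and 12.25 in number 3, differed by +0.39 and +0.61, and IFITM2 by +0.41 and +0.66. All 3 passed in both comparisons. The probe sets of the 3 genes are of kinds that can match several related transcripts, so how the signal divides among these near-identical neighbours is uncertain.

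**Figure D3:**
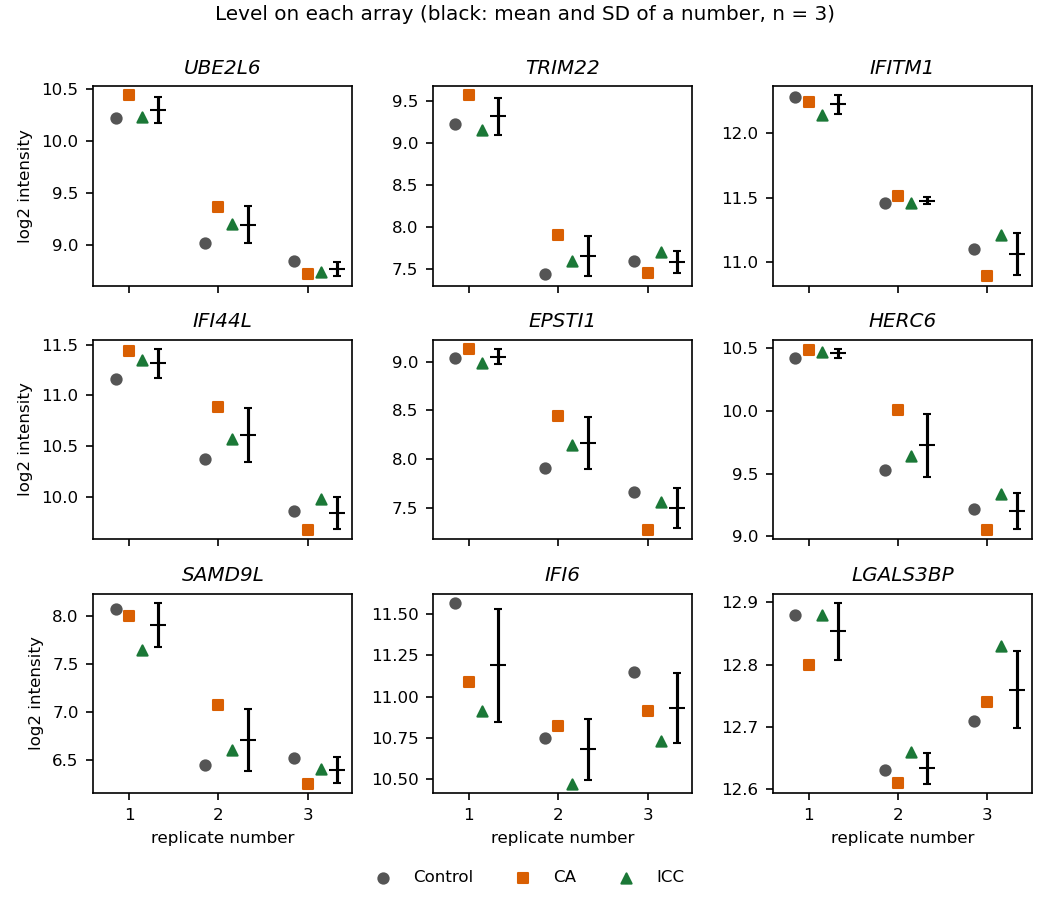
Log2 intensity (vertical axes, scaled separately) of 9 genes on each array by replicate number, with Control as circles, CA as squares and ICC as triangles, and the mean and SD of each number in black (n = 3). In UBE2L6, TRIM22, IFITM1, IFI44L, EPSTI1, HERC6 and SAMD9L the 3 arrays numbered 1 lie above all others whatever the treatment, while IFI6 has Control above ICC in every number.

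IFI44L and IFI44 are interferon-induced neighbours on chromosome 1, and EPSTI1 encodes a protein linked to epithelial and stromal interaction. IFI44L was at 11.16, 11.44 and 11.35 in number 1, 10.37, 10.89 and 10.57 in number 2 and 9.86, 9.67 and 9.98 in number 3. EPSTI1 was at 9.04, 9.13 and 8.98, then 7.91, 8.44 and 8.14, then 7.66, 7.27 and 7.56 in the same order. In neither gene did any number overlap another. Against number 3, IFI44L differed by +1.48 ± 0.12 (2.79-fold, adjusted p = 0.000255 by limma) and EPSTI1 by +1.55 ± 0.14 (2.93-fold, adjusted p = 0.000399). Against number 2 they differed by +0.71 and +0.89, and both passed. IFI44 was at 10.84, 11.05 and 10.95 in number 1, 10.07, 10.44 and 10.20 in number 2 and 10.11, 9.98 and 9.98 in number 3, a difference of +0.92 from number 3 (adjusted p = 0.000702) that was +0.47 (adjusted p = 0.0728) with its probe set that ends in neither _x_at nor _s_at, suffixes of probe sets that can match several transcripts. IFI35, whose product associates with the interferon-induced protein NMI, was at 9.54, 9.57 and 9.40, then 8.69, 9.08 and 8.94, then 8.65, 8.64 and 8.52, and was +0.90 ± 0.089 higher in number 1 than in number 3 (adjusted p = 0.000728).

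The oligoadenylate synthetases make a short nucleotide messenger on double-stranded RNA that activates RNase L. OAS1 was at 11.12, 11.22 and 11.16 in number 1, 10.43, 10.68 and 10.54 in number 2 and 10.42, 10.20 and 10.29 in number 3. OAS3 was at 11.59, 11.66 and 11.67, then 10.82, 11.20 and 10.92, then 10.69, 10.59 and 11.05. Number 1 was apart in both genes, and numbers 2 and 3 overlapped in OAS3. OAS1 differed by +0.62 and +0.86, OAS2 by +0.66 and +1.14, and OAS3 by +0.66 and +0.86, all past the threshold. OASL, a related protein without synthetase activity, was at +0.05 (adjusted p = 0.855 by limma) and +0.41 (adjusted p = 0.0633), and passed in neither.

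Of the sensors, IFIH1, which encodes the RNA helicase MDA5, was +0.64 and +0.98 higher in number 1, and EIF2AK2, the RNA-dependent kinase PKR that stops translation, +0.44 and +0.47. DDX60, a helicase that aids viral RNA sensing, was at 10.44, 10.80 and 10.76 in number 1, 9.83, 10.42 and 10.05 in number 2 and 9.83, 9.70 and 9.86 in number 3. Its CA array numbered 2 came within 0.02 of the Control array numbered 1. All 3 sensors passed in both comparisons. The transcription factor genes IRF1, IRF7 and IRF9 were +0.19, +0.31 and +0.09 against number 2, where none of the 3 passed (adjusted p = 0.355, 0.129 and 0.695 by limma), and +0.43, +0.61 and +0.41 against number 3, where all 3 did.

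The IFIT proteins bind viral RNA that lacks the host's cap. IFIT1 and IFIT3 passed in both comparisons, at +0.82 and +0.87 against number 2 and +1.22 and +1.06 against number 3. IFIT5 passed against number 3 (+0.75), and IFIT2 in neither (+0.26 and +0.42, adjusted p = 0.379 and 0.131 by limma). Both Mx genes, which encode dynamin-like GTPases that trap viral nucleocapsids, passed in both, with MX1 at +0.70 and +1.05 and MX2 at +0.78 and +1.37. Of the guanylate-binding proteins, GTPases that attack vacuoles of pathogens, GBP1 was +0.92 and +0.78 higher and passed in both. GBP2, at 8.07, 7.77 and 7.90 in number 1, 7.53, 7.39 and 7.46 in number 2 and 7.71, 7.39 and 7.76 in number 3, passed against number 2 (+0.46) and not against number 3 (+0.30, adjusted p = 0.0580).

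SAMD9L, a translation-blocking restriction factor next to SAMD9, was at 8.07, 8.0 and 7.64 in number 1, 6.45, 7.07 and 6.60 in number 2 and 6.52, 6.25 and 6.41 in number 3. It was 2.29-fold and 2.85-fold higher in number 1 (+1.20 ± 0.15 and +1.51 ± 0.15, adjusted p = 0.00254 and 0.000702 by limma), and SAMD9 differed by +0.32 (adjusted p = 0.0838) and +0.60 (adjusted p = 0.00579). RSAD2 encodes viperin, a radical enzyme that makes a chain-terminating nucleotide, and lies beside CMPK2, a mitochondrial nucleotide kinase. RSAD2 was at 8.58, 8.33 and 7.90 in number 1, 7.36, 7.84 and 7.45 in number 2 and 7.51, 7.12 and 7.39 in number 3, and passed in both comparisons at +0.72 and +0.93. CMPK2 was at 10.25, 10.65 and 9.77, then 9.38, 10 and 9.69, then 9.31, 9.08 and 9.25, with ICC 1 below CA 2. It passed against number 3 at +1.01 and not against number 2 at +0.53 (adjusted p = 0.140).

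PARP9, a partner of the ubiquitin ligase DTX3L, was at 10.88, 11.02 and 10.82 in number 1, 10.15, 10.38 and 10.18 in number 2 and 10.16, 9.97 and 10.10 in number 3. It was +0.67 ± 0.087 and +0.83 ± 0.087 higher in number 1 (adjusted p = 0.00314 and 0.000873 by limma), and +0.54 against number 3 with its probe set that ends in neither suffix. DTX3L, encoded beside it, was at 11.15, 11.24 and 11.06 in number 1, 10.74, 11.06 and 10.84 in number 2 and 10.88, 10.79 and 10.91 in number 3, and passed in neither comparison (+0.27 and +0.29, adjusted p = 0.129 and 0.0956). PARP14, a mono-ADP-ribosyltransferase, passed against number 2 (+0.45) and not against number 3 (+0.33, adjusted p = 0.0722). The nuclear body protein SP100, at 9.53, 9.85 and 9.79, then 9.15, 9.73 and 9.41, then 8.97, 9.06 and 9.17, passed against number 3 (+0.66) and not against number 2 (+0.29, adjusted p = 0.117). Its relative SP110 passed in both (+0.46 and +0.82), as did ISG20, an RNA exonuclease, at +0.40 and +0.47.

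Genes of survival and of the cell surface came last. XAF1, a pro-apoptotic partner of XIAP, was +0.67 (adjusted p = 0.0829 by limma) and +1.37 ± 0.19 (adjusted p = 0.00319) higher in number 1. IFI6, whose product opposes apoptosis at the mitochondrion, passed against number 2 (+0.51, adjusted p = 0.0194) and not against number 3 (+0.26, adjusted p = 0.160). IFI27, a mitochondrial protein, was bright and tight, at 13.12, 13.07 and 13.11 in number 1, 12.83, 12.89 and 12.87 in number 2 and 12.73, 12.67 and 12.52 in number 3. Its difference of +0.46 from number 3 passed (adjusted p = 0.00631), and +0.24 from number 2 did not. PLSCR1, a phospholipid scramblase, passed in both at +0.32 and +0.61. BST2, the tetherin that holds budding virus at the membrane, was at 11.26, 10.96 and 10.76 in number 1, 10.75, 10.76 and 10.74 in number 2 and 10.81, 10.71 and 10.66 in number 3, so that the elevation lay mostly in Control 1. LGALS3BP, a secreted glycoprotein that binds galectins, was at 12.88, 12.80 and 12.88, then 12.63, 12.61 and 12.66, then 12.71, 12.74 and 12.83, a range of 0.27 over all arrays. Neither BST2 nor LGALS3BP passed in any comparison. With DTX3L, IFIT2 and OASL they were the 5 of 47 genes that passed nowhere.

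The arrays numbered 2 and 3 differed less. At an adjusted p under 0.05, 4 of 47 genes were higher in number 2 than in number 3 and 0 were lower, where 1.73% of all genes passed and 0.936% as higher. They were IFI44L (+0.77 ± 0.12, 1.71-fold, adjusted p = 0.0202 by limma), EPSTI1 (+0.67, adjusted p = 0.0424), IFITM1 (+0.41, adjusted p = 0.0466) and UBE2L6 (+0.43, adjusted p = 0.0466). The median was +0.27, with 41 of 47 above 0 (48.8% of all genes), and single genes ran from -0.25 (IFI6) to +0.77. The median was +0.07 within Control, +0.56 within CA and +0.20 within ICC. The count was 2 without ICC 3, 1 without Control 1, CA 1 or ICC 1, and 0 without any 1 of the other arrays. Number 3 was the lowest of its group in all 3 groups in 28 of 47 genes (9.08% of all genes), and number 2 in 4 (8.49%).

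Probe sets that were not used for the main value gave a further look at the same RNA. There were 40 of them, for 25 of the genes, and 37 had a mean above the lower quartile of all genes. In all 40 the mean of number 1 was above that of number 2 and that of number 3. With 1 probe set a gene, 59.4% and 59% of all genes were above 0 in these comparisons. They share the RNA and the arrays with the chosen probe sets. With the mean of all probe sets of a gene the median of number 1 minus number 3 was 0.69, and with probe sets that end in neither _x_at nor _s_at, which existed for 37 of the genes, it was 0.66.

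Splitting each gene's sum of squares over the 9 arrays sets numbers and groups side by side. The median share between replicate numbers was 86.2% for the 47 genes and 31.8% for all genes. Between treatment groups it was 2.61% and 21.8%, and the rest was 8.08% and 36.7%. In 32 of 47 genes over 80% lay between numbers, as in 5.55% of all genes. The share between groups was highest in IFI6, at 39.4%, and was 27.5% in BST2, the gene with the lowest share between numbers (48.7%).

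Genes on either side of these targets in the pathway were taken from lists written with the members' pattern known. Interferon genes themselves were at low signal, with gene means from 3.11 to 5.22. Of the 18 measured, 15 lay below the lower quartile of all genes (4.62). In each of the 3 comparisons of replicate numbers 0 of 18 passed. At an unadjusted p under 0.05 there were 1, 2 and 1 in number 1 minus 2, 1 minus 3 and 2 minus 3. The shares of all genes at that p were 17.6%, 19.1% and 14.4%. In ICC minus Control, CA minus Control and ICC minus CA 0 of 18 passed as well. There 6, 3 and 0 of 18 were at that unadjusted p (7.73%, 4.47% and 2.69% of all genes), at the same low signal. Of 10 receptors and kinases measured 0 passed between numbers, with 2, 0 and 1 at that unadjusted p. IFNAR1, a chain of the type I receptor, was +0.31 ± 0.087 in number 1 minus number 2 (adjusted p = 0.0812 by limma) and +0.18 in number 1 minus number 3. Of 9 negative regulators 0 passed, among them PTPN2, a phosphatase of the kinases, at 0.00 and +0.24, and the counts at the unadjusted p were 0, 2 and 1.

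Of 29 other induced genes that are not among the 47, 12 were higher in number 1 than in number 2 and 18 were higher than in number 3, with 0 lower, where 3.1% and 3.33% of all genes were higher. The medians were +0.30 and +0.48, and 1 and 3 of the 29 lay below 0. PML, the scaffold of the nuclear bodies that hold SP100, was at 8.61, 8.70 and 8.81 in number 1, 8.09, 7.97 and 8.16 in number 2 and 8.0, 7.92 and 8.06 in number 3, and differed by +0.63 and +0.71. TAP1, the transporter of peptides for MHC class I, differed by +0.75 and +0.65, and BATF2, a transcription factor, by +0.66 and +0.64. Of 13 genes of nucleic acid sensing, 2 and 5 were higher in number 1, and 1 and 3 lay below 0. ZBP1, a sensor of Z-form nucleic acid, was at 6.49, 6.25 and 6.22 in number 1, 4.98, 5.09 and 5.09 in number 2 and 5.51, 5.43 and 5.54 in number 3. It was +1.26 ± 0.084 higher in number 1 than in number 2 (adjusted p = 7.83e-05 by limma), +0.82 higher than in number 3, and lower in number 2 than in number 3 (-0.44, adjusted p = 0.0367), as was the lipoprotein component APOL1 (-0.43, adjusted p = 0.0362). IFI16, a DNA sensor, was +1.09 ± 0.14 higher in number 1 than in number 3 (adjusted p = 0.00230).

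Of 11 targets more typical of interferon-gamma, 1 was higher in number 1 than in number 2 (CD74, the MHC class II invariant chain, +0.75 ± 0.11, adjusted p = 0.00471 by limma) and 1 was higher than in number 3 (CXCL10, a chemokine, +0.90 ± 0.21, adjusted p = 0.0361). CXCL10 was at 8.14 in Control 1 and between 5.96 and 7.05 on all other arrays, so its elevation was led by 1 array. ICAM1, an adhesion molecule, was at +0.39 and +0.54 and did not pass. At an unadjusted p under 0.05 the list had 6 and 8 of 11 (17.6% and 19.1% of all genes).

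**Figure D4:**
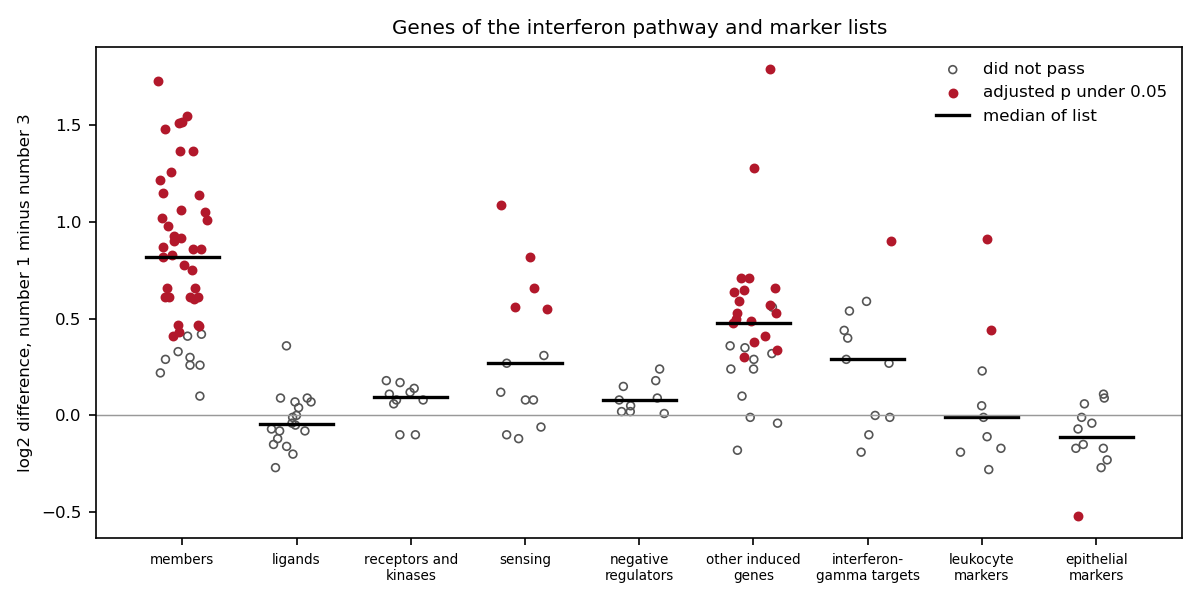
Log2 difference between number 1 and number 3 (vertical axis) for the 47 members and 8 other lists, 1 point per gene, filled where limma's adjusted p was under 0.05, with the median of each list as a bar. Members (median 0.82) and other induced genes (0.48) lie highest, and no ligand, receptor, kinase or negative regulator is filled.

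Markers of other cells and of the line also moved with the number in part. Of 9 leukocyte markers measured, LAPTM5, a lysosomal protein of blood cells, was +0.48 and +0.91 higher in number 1. CD14, a lipopolysaccharide co-receptor, was +0.55 and +0.44 higher, and all 4 values passed. That made 2 of 9 higher in each comparison, where 3.1% and 3.33% of all genes passed as higher. The medians of the 9 were -0.02 against number 2 and -0.01 against number 3, with 6 and 5 below 0. At an unadjusted p under 0.05 there were 3 and 5 of 9 (17.6% and 19.1% of all genes). The mean level of the 9 lay between 5.15 and 5.43 on the arrays numbered 1, between 5.18 and 5.32 on those numbered 2 and between 5.18 and 5.23 on those numbered 3, and PTPRC differed by -0.01 and +0.05. The mean level of 12 epithelial markers lay between 10.72 and 10.94 on all arrays. LGALS4, a galectin of the gut lining, was 0.67 lower in number 1 than in number 2 (adjusted p = 0.00174 by limma). The tetraspanin TSPAN8 was 0.52 lower in number 1 than in number 3 (adjusted p = 0.00249). Of all genes 0.743% and 1.22% passed as lower. In number 2 minus number 3, 1 of the 12 passed as higher and 1 as lower (0.936% and 0.799% of all genes). At an unadjusted p under 0.05 there were 5, 5 and 4 of 12 (17.6%, 19.1% and 14.4% of all genes). In the same comparisons 6, 9 and 8 of the 12 lay below 0. Of 8 stromal and endothelial markers 0 passed, with 1, 1 and 0 at an unadjusted p under 0.05 (17.6%, 19.1% and 14.4% of all genes). The 3′ minus 5′ difference of the ACTB control probe sets, a reading of RNA integrity, had means of 0.23, 0.34 and 0.32 in numbers 1, 2 and 3, and that of GAPDH -0.01, 0.01 and 0.05. The part of any of these in the difference between numbers was not tested.

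Whether caffeic acid or instant coffee changed these genes was the comparison of the design. With limma, 0 of 47 passed in ICC against Control, in CA against Control and in ICC against CA, where 0% of all genes passed in each. With the replicate number as a block the count was again 0 of 47 in each, where 0%, 0.0152% and 0.00506% of all genes passed. At an unadjusted p under 0.05 the counts were 1, 0 and 0 of 47 (7.73%, 4.47% and 2.69% of all genes), and with the block 3, 6 and 2 (12.4%, 8.54% and 5.96%). In none of the 47 did the 3 arrays of a treatment clear all 3 of the group it was set against, as happened in 12%, 7.86% and 5.87% of all genes. The 3 comparisons share arrays in pairs, so each is given with its own values.

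In ICC minus Control the median of the 47 was +0.01, with 27 above 0 (60.2% of all genes), and that of all genes was 0.028. With each array centred on its median 17 of 47 were above 0, where the median of all genes was -0.014. IFI6 had the lowest moderated t. It was at 11.57, 10.75 and 11.15 in Control, 11.09, 10.82 and 10.91 in CA and 10.91, 10.47 and 10.73 in ICC, in the order of the numbers 1, 2 and 3. ICC was below Control in each number, by -0.66, -0.28 and -0.42, but the groups overlapped. The difference was -0.45 ± 0.18 (95% interval -0.86 to -0.05, unadjusted p = 0.0323, adjusted p = 0.630 by limma), and with the block its SE was 0.096 (unadjusted p = 0.00075, adjusted p = 0.312). Without Control 1 it was -0.25. BST2 differed by -0.22 ± 0.13 and was also below Control in each number, at -0.50, -0.02 and -0.15, but it was -0.06 without Control 1. RSAD2 was at -0.24 (-0.04 as the mean of its probe sets), ISG20 at -0.12 and IFITM3 at -0.11. The highest moderated t were those of SP100 (+0.24), IRF7 (+0.15), DDX60 (+0.19), IRF1 (+0.10) and OAS3 (+0.18). SP100 was above Control in each number, by +0.26, +0.27 and +0.20, but its mean over 6 probe sets gave -0.01. It was +0.07 without ICC 1, +0.12 without Control 3, +0.39 without ICC 3 and +0.40 without Control 1. IRF7 was at 10.56, 9.95 and 9.85 in Control, 10.48, 10.43 and 9.87 in CA and 10.52, 10.25 and 10.02 in ICC. IRF1 was at 8.53, 8.23 and 8.0 in Control, 8.48, 8.50 and 7.99 in CA and 8.54, 8.26 and 8.28 in ICC, and in both genes the groups overlapped.

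In CA minus Control the median was +0.09, with 36 of 47 above 0 (51.4% of all genes), and 0.0027 over all genes. SP100 had +0.33 ± 0.22 and was above Control in each number, by +0.32, +0.59 and +0.09. It was +0.14 as the mean of its probe sets, +0.18 without CA 1, +0.21 without Control 3, +0.58 without CA 3 and +0.49 without Control 1. With the block its unadjusted p was 0.00483 and its adjusted p 0.428 by limma. DDX60 (+0.27), TRIM21 (+0.10), ISG15 (+0.17) and DTX3L (+0.11) followed. GBP2 had -0.25 ± 0.16, with -0.29, -0.14 and -0.32 in the 3 numbers (unadjusted p with the block = 0.00785, adjusted p = 0.442). ISG20, at 8.17, 7.55 and 7.59 in Control, 7.80, 7.51 and 7.23 in CA and 7.83, 7.54 and 7.58 in ICC, also had -0.25. IFI6 had -0.21, BST2 -0.13 and IFITM3 -0.12. In ICC minus CA the median was -0.08, with 9 of 47 above 0 (60.6% of all genes) and 0.024 over all genes, and CMPK2 had -0.34 ± 0.36, IFI6 -0.24, TRIM21 -0.14, GBP2 +0.19, ISG20 +0.13 and LGALS3BP +0.07.

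Intervals show what these arrays could resolve. For TRIM22, the gene with the widest spread between numbers, the 95% interval of CA minus Control was -1.15 to 1.59 without the block and -0.05 to 0.49 with it, around the same difference of +0.22. For UBE2L6 it was -0.95 to 1.25 and -0.05 to 0.35, around +0.15. In both of these genes a treatment difference of the size seen between numbers 1 and 3 lay outside both intervals. That did not hold for every member. In GBP1 the interval without the block was -0.49 to 1.02, which holds its difference between numbers 1 and 3 (+0.78). In SP100 it was -0.16 to 0.83, which holds +0.66.

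Within same-numbered arrays the treatment differences were not alike. In CA minus Control the median of the 47 was +0.07 in number 1 (25 above 0, where 48.4% of all genes were), +0.38 in number 2 (44 above 0, where 47.9% of all genes were) and -0.15 in number 3 (5 above 0, where 48.5% of all genes were). In number 2 XAF1 was at 9.58 in CA and 8.62 in Control, a difference of +0.95, and GBP1 at 9.62 and 8.84, a difference of +0.78. In number 3 XAF1 was at -0.24 and GBP1 at +0.05. In ICC minus Control the medians were -0.07, +0.10 and -0.01, with 16, 36 and 23 of 47 above 0 (60.4%, 52% and 51.5% of all genes), and in ICC minus CA -0.07, -0.26 and +0.16, with 13, 3 and 40 (62.7%, 51.7% and 47% of all genes). With 1 array for each group and number these differences have no replicate and were not tested. The median over all 3 numbers turned with single arrays. In CA minus Control it was 0.33 without Control 1, 0.32 without CA 3, -0.01 without Control 2, -0.06 without Control 3 and -0.13 without CA 1. In ICC minus Control it was 0.24 without Control 1, 0.16 without ICC 3, 0.07 without ICC 2, -0.10 without Control 2, -0.14 without Control 3 and -0.20 without ICC 1. In ICC minus CA it was -0.29 without CA 3, -0.27 without ICC 1, -0.01 without ICC 2, -0.04 without CA 2, 0.08 without ICC 3 and 0.14 without CA 1.

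**Figure D5:**
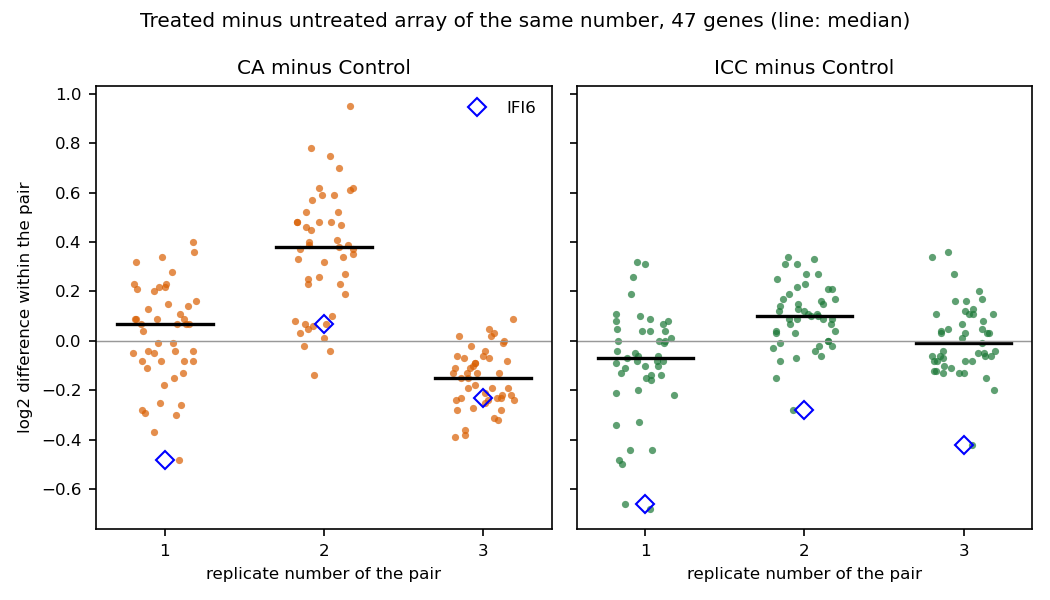
Log2 difference between the treated and the untreated array of the same replicate number (vertical axis) for 47 genes, by number, for CA (left) and ICC (right), with the median as a bar and IFI6 as a diamond. The CA medians are +0.07, +0.38 and -0.15, and IFI6 lies at -0.66, -0.28 and -0.42 in ICC.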

How the data were processed

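HT29 cells were measured on 9 Affymetrix HG-U133 Plus 2.0 arrays, 3 each of Control, CA and ICC, grouped by the labels. The authors deposited linear intensity values, not log2 values. RMA is named in the submitters' processing notes and GeneSpring GX in the design text of the series, without versions or settings. The design for the tests assumed log2 values, so the log2 was taken first. Control probe sets, and those with several gene symbols (1801) or none (11721), were left out of 54675. Then limma 3.58.1 in R 4.3.3 was fitted to 1 probe set for each of 19775 genes, with moderated t-tests and Benjamini-Hochberg adjustment over all of them. Treatments were fitted without the replicate number, which was added as a block as an alternative, and replicate numbers with the group as a term. An exact permutation of 3 against 3 arrays has a smallest p of 0.1 and was not used. Array number limits the precision of every value.

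Same-numbered arrays deviated together from their group means, with correlations of 0.327 to 0.518 over all genes in 9 pairs, against -0.436 to 0.0839 in 18 others, and of 0.308 to 0.508 without the 47 genes. The pairing comes from this check and from the numbers in the labels. The members, lists and tests were chosen with earlier results of these data known. Values on every array were given by rule for the 12 passing genes with the smallest p, the 5 highest and 5 lowest moderated t against Control (3 and 3 for ICC against CA), the 4 smallest p in each comparison of numbers and the 3 brightest; GBP1, XAF1 and other genes were named to account for every member. At most 3 genes of each other list were named by smallest p. Exceptions were EPCAM, KRT20, CDH1, CEACAM5, CDX2, PTPRC and CD3E, given as checks of the cell type. APOL1 and HERC5 were named after their values were seen. The fit was tested on simulated data. Promoter sequences are from RefSeq, and plots were made by matplotlib 3.10.9 under Python 3.11.15. Alternatives were the block, each array left out, further normalization or centring, an offset of 16, dim genes left out, other probe sets, and only the groups compared.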

Additional observations from a re-analysis of the deposited data

How the results depend on the processing

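The 3 treatment comparisons gave 0 of 47 genes past the threshold under every alternative run, the replicate block included, and the medians with the block were 0.01 for ICC and 0.09 for CA against Control and -0.08 for ICC against CA. The block changed no call. For number 1 minus number 2, leaving out an array gave 9 to 35 genes, and for number 2 minus number 3 it gave 0 to 2. The latter count was 2 after centring each array and 8 with dim genes left out, where 9888 genes were tested. Over all genes tested 201 were higher and 171 lower after centring. With dim genes left out 370 were higher and 336 lower, against 185 and 158 of 19775 in the main fit. The median of number 1 minus number 3 moved to 0.69 with the mean of probe sets and 0.66 without probe sets that end in _x_at or _s_at, and 37 genes. Treatment differences that changed sign, none past the threshold, were in CA minus Control BST2 (0.03) and IFITM3 (0.07) without Control 1, IFITM3 (0.07) without CA 3 and TRIM21 (-0.01) without CA 1. In ICC minus CA they were CMPK2 (0.03) without CA 1 and ISG20 (-0.01) without CA 3. In ICC minus Control they were DDX60 (-0.08) and OAS3 (-0.04) without ICC 1, IFITM3 (0.08), ISG20 (0.08) and RSAD2 (0.15) without Control 1, IRF1 without Control 3 (-0.03) and with the block without ICC 3 (-0.01), and SP100 (-0.01) as the mean of probe sets. Over all arrays left out in turn these genes ran, in CA minus Control, from -0.22 to 0.03 (BST2), -0.29 to 0.07 (IFITM3) and -0.01 to 0.17 (TRIM21). In ICC minus CA they ran from -0.75 to 0.03 (CMPK2) and -0.01 to 0.28 (ISG20). In ICC minus Control they ran from -0.08 to 0.39 (DDX60), -0.25 to 0.08 (IFITM3), -0.03 to 0.24 (IRF1), -0.23 to 0.08 (ISG20), -0.04 to 0.46 (OAS3) and -0.46 to 0.15 (RSAD2). The cause of each was not tested.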
